A study of Mus musculus with 6 samples.

Results

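The Bcl2 family decides whether a cell under stress opens its outer mitochondrial membrane. Survival members (Bcl2, Bcl2l1, Mcl1) hold the pore-forming effectors Bax and Bak1 in check. BH3-only members (Bbc3, Pmaip1, Bcl2l11, Bad, Bid) are the sensors that bind the survival proteins or activate the effectors, and open effectors release cytochrome c, which starts the caspases. In beta cells, Bcl2l1 and Mcl1 are known protectors, and Bbc3, Bcl2l11 and Bad are known links from endoplasmic reticulum stress, cytokines and glucose metabolism to death. The 10 members were taken by symbol from a list of the main genes of the family, and all were found among the 46959 genes of the table and passed the filter on low values. The filter was at least 1 RPKM in at least 2 libraries, and 13367 genes passed it. RPKM counts reads per kilobase of gene, scaled to the total reads of the library, so levels of different genes can be set side by side.

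RNA was sequenced from 3 sorted populations of adult mouse islet cells, with 2 libraries each and 6 in all. The mice were offspring of Ins1-H2b-mCherry and Ucn3-eGFP transgenic parents, so every group carried both reporters: nuclear mCherry driven by the insulin gene promoter Ins1, and eGFP driven by Ucn3, a gene of mature beta cells. Immature beta cells had mCherry only, mature beta cells had mCherry and eGFP, and double negative cells, the non-beta cells of the same islets, had neither. Each library came from pooled islets (10 to 12 females per group, per the design text), which were cultured overnight before sorting, although the sex entered for each sample is male in every replicate 1 and female in every replicate 2. Whether the pools of different libraries shared animals is not given in the sources used here, and p-values cover no more than the spread between these libraries.

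The immature libraries were shallow, at 2393841 and 3448926 reads recovered from the RPKM steps, against 22063880 to 26824380 in the others. With the gene lengths of the annotation, recovered reads of 6 members were whole within 0.02 reads, while for Bax, Bbc3, Pmaip1 and Bad the length was chosen so that they were whole. The 8 beta markers summed to 57365 and 62986 RPKM for immature, 206869 and 222309 for mature and 1503 and 3217 for double negative cells. The immature libraries also held markers of other cell types. Summed over 9 immune markers they had 1764 and 1829 RPKM, against 19.5 and 20.1 in mature and 41.1 and 45.6 in double negative cells, with Ptprc or Tyrobp at 0 in a mature library. Most of the mature sum was C1qa, at 15.9 and 16.5 RPKM. C1qa was at 123 and 141 RPKM for immature and 15.8 and 15.5 for double negative cells. The sum of 7 endothelial markers was 782 and 733 RPKM for immature, 3.63 and 2.23 for mature and 178 and 188 for double negative cells. The 6 mesenchymal markers summed to 136 and 95.6 RPKM for immature, 0.395 and 0.469 for mature and 20.5 and 25.7 for double negative cells. Acinar markers summed to 8452 and 26626 RPKM in the immature libraries, against 117 to 169 in mature and 241 and 2003 in double negative cells. Alpha cell markers summed to 29134 and 19833 RPKM for immature, 660 and 866 for mature and 178045 and 171611 for double negative cells. Delta cell markers summed to 3382 and 3698 RPKM for immature, 220 and 338 for mature and 20363 and 21905 for double negative cells, and PP cell markers to 7291 and 8546, 171 and 156, and 19147 and 20419 in the same order. The ductal sum was 366 and 385 RPKM for immature, 808 and 883 for mature and 663 and 671 for double negative cells, most of it Spp1 (288 and 286, 748 and 821, and 620 and 624 RPKM). Among the other ductal markers, Krt19 (33.6 and 55.0 against 7.16 and 7.74 RPKM) and Sox9 (4.34 and 3.58 against 0.031 and 0.054 RPKM) were higher in immature than in mature libraries. Krt7 went the other way, lower in both immature libraries than in either mature one, and Cftr was scarce in all libraries. The ductal markers thus gave no single direction. No defining marker was at 0 in the immature or double negative libraries. These sums move with the groups, and their part in the results below was not tested. In such bulk samples, fewer cells of a type and less RNA per cell cannot be told apart.

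The first contrast set the immature population against the mature one. Of the 10 members, 8 were higher in immature cells, Bcl2l1 was lower, and Bid did not pass (limma, adjusted p under 0.05). The largest rise was that of Pmaip1, which was nearly absent from mature cells, and Bcl2l11, Bcl2 and Bak1 also rose by more than 1 on the log2(RPKM + 1) scale. Over all tested genes 65.3% were called, 49.8% higher and 15.5% lower, so a rise by itself was common here. The median difference of the members, on that scale, used for every difference below, was 0.88, against 0.29 for all tested genes. The share of higher genes among all called genes depended on the scaling. It was 76.2% with the deposited values, 60.5% after median-ratio rescaling, 58.3% after rescaling without the hormone genes and 38.6% after quantile normalization, and the median of all genes moved to 0.11, 0.08 and -0.16. Under these scalings 7, 6 and 6 members stayed called higher, and Bcl2l1 stayed called lower in each.

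**Figure D1:**
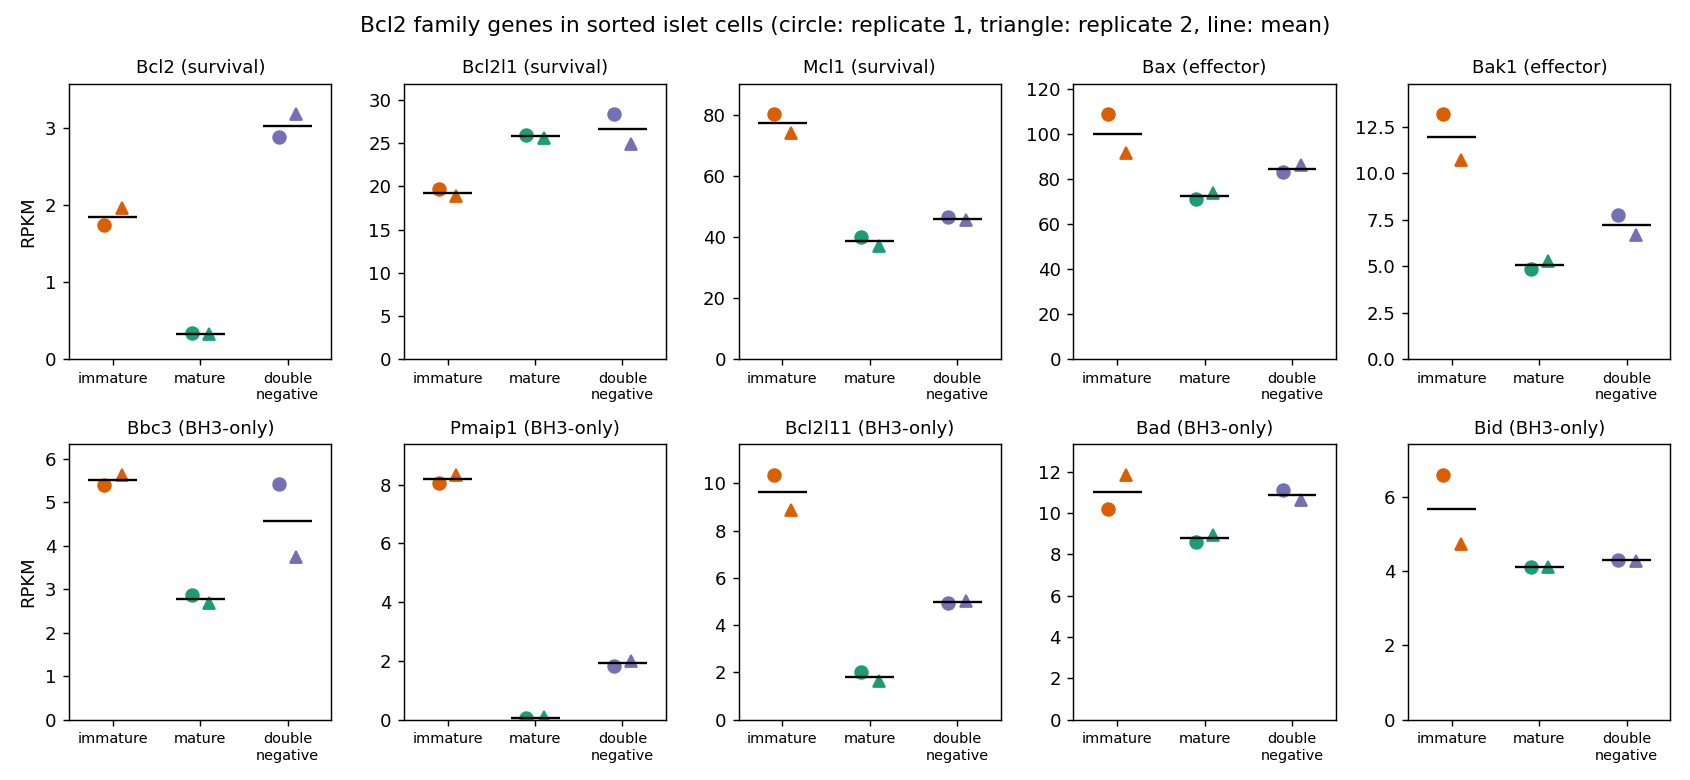
RPKM (vertical axis, from 0) of each member in immature, mature and double negative cells, with a circle for replicate 1, a triangle for replicate 2 and a line at the group mean. Every member except Bcl2l1 has its lowest values in the mature libraries, and Pmaip1 lies at 0.0637 and 0.0845 RPKM there.

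Among the survival members, Mcl1 and Bcl2l1 carried nearly all of the RNA and moved in opposite directions. Mcl1 (ENSMUSG00000038612.16, chromosome 3, 95658788 to 95663176, plus strand, GRCm38) encodes a short-lived survival protein that is degraded within hours. It stood at 80.2 and 74.1 RPKM for immature, 40.0 and 37.1 for mature and 46.5 and 45.5 for double negative cells. Both immature values lay above all others, and the 3 groups did not overlap. Mcl1 rose by 0.98 (SE 0.06, limma adjusted p = 6.72e-05) from mature to immature cells, and its rate over summed reads was 1.99 times the mature one. It rested on 656 and 874 reads in the immature libraries.

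Bcl2l1 (ENSMUSG00000007659.18, chromosome 2, 152780668 to 152831728, minus strand) encodes Bcl-xL, a stable survival protein of the outer mitochondrial membrane. It measured 19.7 and 18.9 RPKM for immature, 25.9 and 25.7 for mature and 28.4 and 24.9 for double negative cells. The immature libraries were the lowest, while mature and double negative values overlapped. Bcl2l1 fell by 0.40 from mature to immature cells (SE 0.07, limma adjusted p = 0.0041). Rescaled without the hormone genes the fall was -0.65, and on the recovered reads limma's voom gave -0.22 with an adjusted p = 0.066. Mcl1 was thus 4.07 and 3.92 times Bcl2l1 in the immature libraries, 1.54 and 1.44 times in the mature and 1.64 and 1.83 times in the double negative libraries, a ratio that multiplying a whole library by a factor cannot change.

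Bcl2 itself (ENSMUSG00000057329.7, chromosome 1, 106538178 to 106714274, minus strand), the founding survival gene of the family, was the scarcest survival member in every library. It stood at 1.73 and 1.96 RPKM for immature, 0.341 and 0.322 for mature and 2.88 and 3.18 for double negative cells, and the 3 groups did not overlap. Its share of summed survival RPKM was 1.71% and 2.07% for immature, 0.514% and 0.51% for mature and 3.71% and 4.32% for double negative cells. Bcl2 rose by 1.10 (SE 0.10, limma adjusted p = 0.000242) from mature to immature cells, 5.58-fold in mean RPKM, on 38 and 62 immature and 74 and 79 mature reads. The difference was 0.35 after quantile normalization. The antisense gene D630008O14Rik shares 558 of the 9157 exonic bases of Bcl2 and is listed at 0 in every library.

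The effectors were led by Bax, the most abundant member in all 3 groups. Bax (ENSMUSG00000003873.11, chromosome 7, 45461697 to 45466898, minus strand), which moves from the cytosol to mitochondria on activation, measured 109 and 91.4 RPKM for immature, 71.2 and 73.9 for mature and 82.9 and 86.0 for double negative cells. The immature pair lay highest and was the most spread. Bax rose by 0.45 (SE 0.09, limma adjusted p = 0.00495), but by 0.24 (adjusted p = 0.0425) after median-ratio rescaling and by 0.20 (adjusted p = 0.195) once libraries were rescaled without the hormone genes. In GENCODE M21, 192 of its 1576 exonic bases are shared with the predicted gene Gm45808, for which no value was used here.

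Bak1 (ENSMUSG00000057789.14, chromosome 17, 27019810 to 27029009, minus strand), the effector that resides on mitochondria, stood at 13.2 and 10.7 RPKM for immature, 4.87 and 5.27 for mature and 7.74 and 6.71 for double negative cells. The groups were separate, in the order immature, double negative, mature. Bak1 rose by 1.09 (SE 0.12, limma adjusted p = 0.000495), 2.36-fold in mean RPKM, and by 0.66 after quantile normalization. Bax exceeded Bak1 by 8.24 and 8.53 times for immature, 14.6 and 14 for mature and 10.7 and 12.8 for double negative cells.

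Between immature and mature cells, the BH3-only members Pmaip1 and Bcl2l11 held the widest differences, while Bad and Bid, of the same role, held the smallest. For Bcl2l11 and Bbc3, both known transcriptional targets of FoxO factors, the 250 bases before an annotated RefSeq start follow (build GRCm38.p6, 5′ to 3′ on the gene's plus strand), with the forkhead core GTAAACA or its reverse complement TGTTTAC in capitals. The Bcl2l11 window is chr2:128125788-128126037, just before the first annotated exon, and the Bbc3 window is chr7:16310011-16310260, inside the Bbc3 gene and outside its GENCODE M21 exons.
Bcl2l11: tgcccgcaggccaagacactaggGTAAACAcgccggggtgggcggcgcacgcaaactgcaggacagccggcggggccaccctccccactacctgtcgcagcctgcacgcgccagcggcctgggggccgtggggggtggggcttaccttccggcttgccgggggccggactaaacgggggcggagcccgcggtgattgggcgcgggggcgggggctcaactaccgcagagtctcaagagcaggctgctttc
Bbc3: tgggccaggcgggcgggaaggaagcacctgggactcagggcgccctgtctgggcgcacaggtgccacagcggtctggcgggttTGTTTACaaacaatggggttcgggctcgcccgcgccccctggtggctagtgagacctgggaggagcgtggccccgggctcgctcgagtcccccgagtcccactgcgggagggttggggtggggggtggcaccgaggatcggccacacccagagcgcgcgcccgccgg
The motif begins 227 bases before the Bcl2l11 start and 167 bases before the Bbc3 start. It was found on either strand in 2 of the 15 windows of 9 members in the RefSeq table and in 3.17% of all 32851 windows of that length. The motif was chosen after the sequences were seen, and a match is a description of the letters only. Whether FoxO factors act on these genes here was not tested. The RNA of Foxo1 and Foxo3 did not pass as different between immature and mature cells. Foxo1 measured 8.68 and 9.90 RPKM for immature and 8.18 and 7.69 for mature cells (difference 0.20, limma adjusted p = 0.0807). Foxo3 measured 10.0 and 12.7 against 10.1 and 10.0 RPKM (difference 0.15, limma adjusted p = 0.258). Both passed as higher without immature replicate 1 (0.29 and 0.31) and with voom on recovered reads (0.44 and 0.39), and both turned negative after quantile normalization (-0.19 and -0.20).

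Pmaip1 (ENSMUSG00000024521.8, chromosome 18, 66458533 to 66465565, plus strand) encodes Noxa, a p53- and stress-induced sensor that binds Mcl1. It stood at 8.05 and 8.33 RPKM for immature, 0.0637 and 0.0845 for mature and 1.83 and 2.01 for double negative cells. The mature values rest on 4 and 6 reads, where 3 reads would give 0.0478 and 0.0423 RPKM, so Noxa RNA was detected in mature cells just above that floor. The immature values rest on 51 and 76 reads in far smaller libraries. Over summed reads the immature rate was 109.9 times the mature rate (95% exact interval 57.8 to 235, for counting error only). Pmaip1 rose by 3.10 (SE 0.09, limma adjusted p = 3.42e-06), the largest difference of any member, and by 2.73 to 2.96 under the other scalings. It made up 19.8% and 21.1% of summed BH3-only RPKM in immature, 0.361% and 0.484% in mature and 6.65% and 7.83% in double negative libraries. In the same libraries the immune marker Lyz2 stood at 168 and 167 RPKM for immature, 0.27 and 0.21 for mature and 1.18 and 0.90 for double negative cells. Tyrobp was at 116 and 100.2, 0.15 and 0, and 1.29 and 1.48 RPKM in the same order. A further immune marker, C1qa, was at 123 and 141, 15.9 and 16.5, and 15.8 and 15.5 RPKM. The endothelial marker Cdh5 was at 125 and 125 RPKM for immature, 0.50 and 0.26 for mature and 31.1 and 30.7 for double negative cells. The part of such cells in the Pmaip1 values was not tested.

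Bcl2l11 (ENSMUSG00000027381.16, chromosome 2, 128126038 to 128162547, plus strand) encodes Bim, which binds every survival protein of the family. It measured 10.4 and 8.88 RPKM for immature, 2.0 and 1.63 for mature and 4.93 and 5.02 for double negative cells, 3 groups without overlap. Bcl2l11 rose by 1.91 (SE 0.11, limma adjusted p = 3.85e-05), 5.29-fold in mean RPKM, on 199 and 246 immature reads. It stayed called higher under all scalings, with 1.29 after quantile normalization as the lowest value.

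Bbc3 (ENSMUSG00000002083.13, chromosome 7, 16308393 to 16318205, plus strand) encodes Puma, a p53 target. It stood at 5.41 and 5.63 RPKM for immature, 2.88 and 2.69 for mature and 5.42 and 3.75 for double negative cells. Mature values were the lowest, and the immature values lay within or just above the wide double negative range. Bbc3 rose by 0.79 (SE 0.15, limma adjusted p = 0.00479) on 26 and 39 immature reads, and by 0.15 (adjusted p = 0.433) after quantile normalization.

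Bad and Bid, which are switched on after translation, by loss of phosphate and by caspase cleavage, differed little between immature and mature cells. Bad (ENSMUSG00000024959.14, chromosome 19, 6941861 to 6951899, plus strand) measured 10.2 and 11.8 RPKM for immature, 8.61 and 8.93 for mature and 11.1 and 10.6 for double negative cells. Its difference of 0.30 between immature and mature cells passed (SE 0.08, limma adjusted p = 0.023), but it was 0.10, 0.06 and -0.07 after median-ratio rescaling, rescaling without the hormone genes and quantile normalization and passed in none of them, nor without mature replicate 1 or 2 (0.27 and 0.32, adjusted p = 0.124 and 0.0868). In GENCODE M21 the opposite-strand gene Gpr137 shares 524 of 2558 exonic bases of Bad. Gpr137 was itself at 11.8 and 11.2 RPKM in immature against 7.74 and 7.97 RPKM in mature cells. The length used for Bad here was 2007 bases, so whether the shared stretch was counted is not known. The library kit does not mark strand, so reads in that stretch cannot be assigned to either gene.

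Bid (ENSMUSG00000004446.12, chromosome 6, 120891930 to 120916853, minus strand), the link from death receptors to mitochondria, stood at 6.59 and 4.74 RPKM for immature, 4.11 and 4.12 for mature and 4.29 and 4.29 for double negative cells. The single high value was that of immature replicate 1, on 56 reads. The difference from mature cells was 0.37 (SE 0.14, limma adjusted p = 0.0572), 0.17 without immature replicate 1 and 0.57 (adjusted p = 0.00121) without immature replicate 2, and it turned to -0.20 after quantile normalization. Bid shares 628 of 3550 exonic bases with the opposite-strand family gene Bcl2l13.

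**Figure D2:**
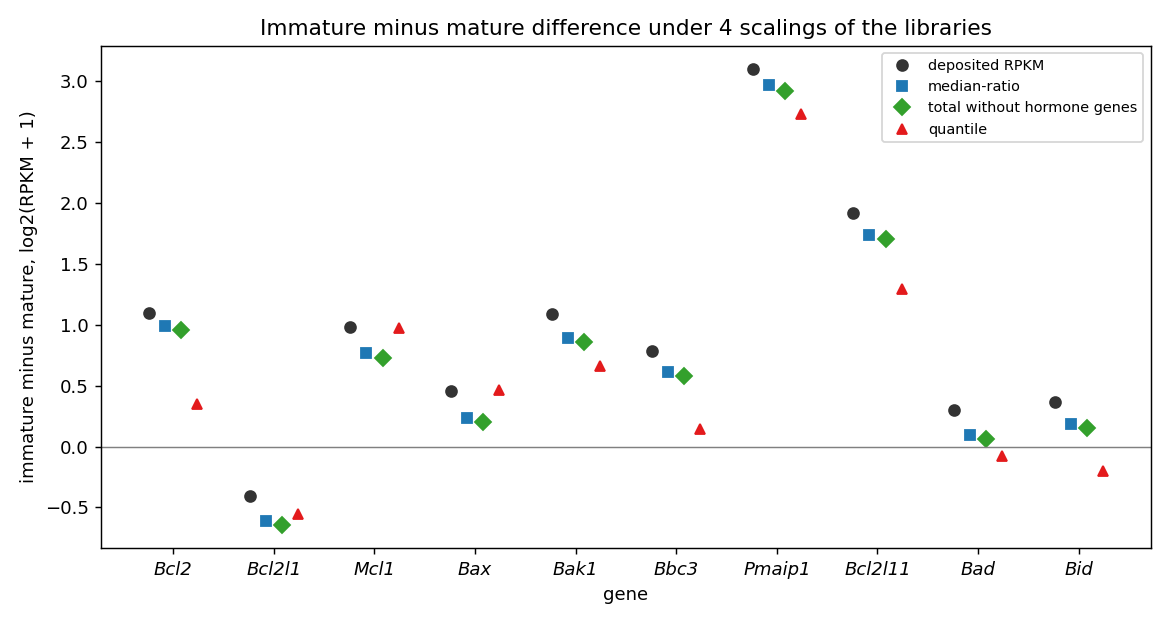
Immature minus mature difference in log2(RPKM + 1) for each member (vertical axis), with the deposited values and with the libraries rescaled by median ratios, by totals without hormone genes, or by quantiles. Pmaip1 and Bcl2l11 stay far above 0 and Bcl2l1 stays below 0 in all 4, while Bad and Bid cross 0 after quantile normalization.

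Sums by role showed which part of the family differed in make-up, with no test made on them. Summed survival RPKM was 102 and 95 for immature, 66.3 and 63.1 for mature and 77.7 and 73.5 for double negative cells. Effector RNA per survival RNA was 1.20 and 1.08 for immature, 1.15 and 1.26 for mature and 1.17 and 1.26 for double negative cells. The 3 groups thus overlapped in this ratio of sums, though not in a difference of mean logs given below. BH3-only RNA per survival RNA was 0.400 and 0.415 for immature, 0.266 and 0.277 for mature and 0.355 and 0.350 for double negative cells, without overlap. Without Bad and Bid the same ratio was 0.234 and 0.240 for immature, 0.0745 and 0.0700 for mature and 0.157 and 0.147 for double negative cells. Bad and Bid together held 72.0% and 74.7% of BH3-only RNA in mature cells but 41.3% and 42.1% in immature cells. Mcl1 held 78.9% and 78% of survival RNA in immature, 60.4% and 58.8% in mature and 59.8% and 61.8% in double negative cells.

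**Figure D3:**
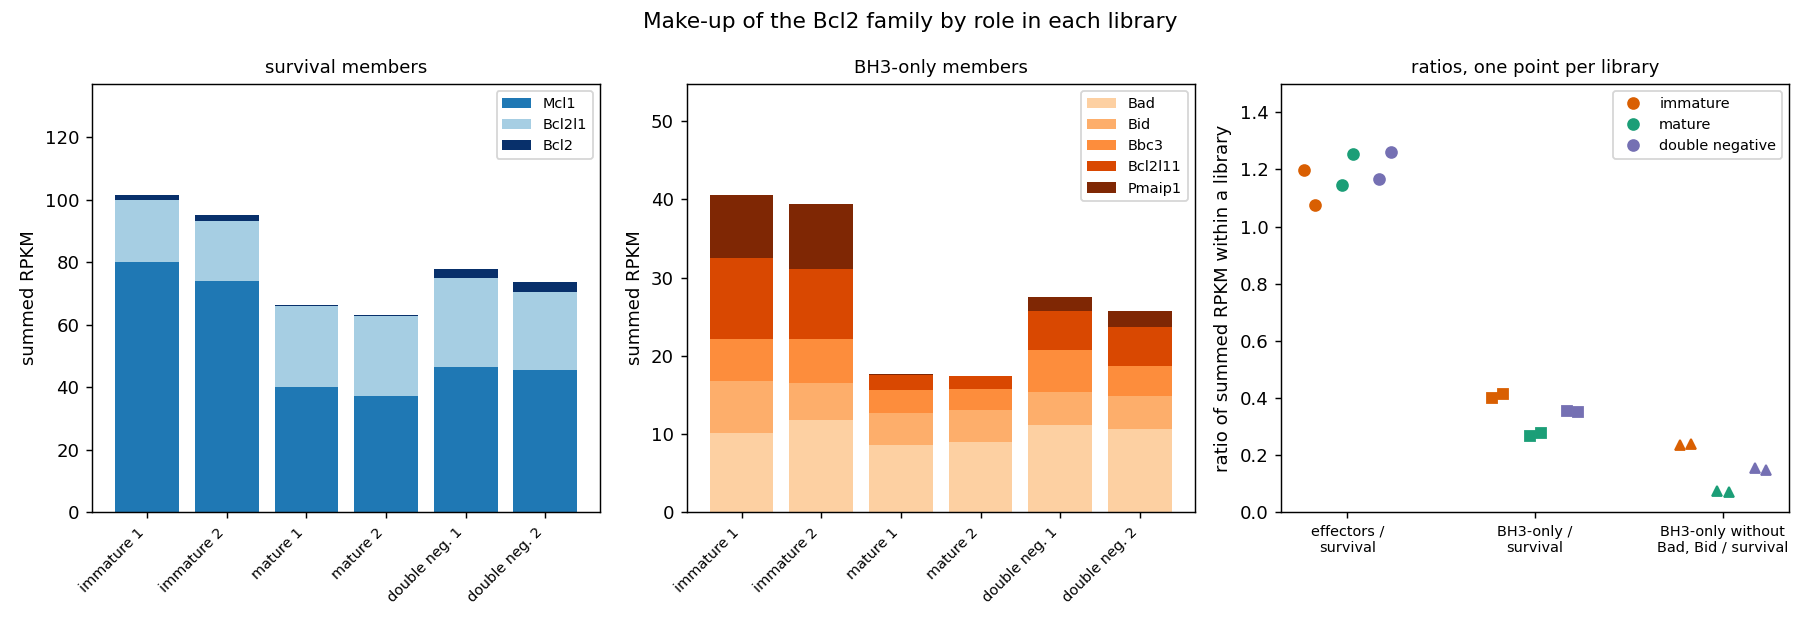
Left and middle, summed RPKM of survival and BH3-only members in each library, stacked by gene. Right, ratios of summed RPKM within each library, 1 point per library. Effectors per survival member overlap between groups (1.08 to 1.26), while BH3-only per survival member is lowest in both mature libraries (0.266 and 0.277).

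The second contrast, of mature beta cells with the double negative population, shares its mature libraries with the first. None of the members was higher in mature cells and 7 were lower (Bcl2, Mcl1, Bak1, Bbc3, Pmaip1, Bcl2l11 and Bad), beside 54.3% of all tested genes called, 23.1% higher and 31.2% lower. Bcl2 fell by 1.60 (SE 0.10, limma adjusted p = 7.27e-05), Pmaip1 by 1.44 (SE 0.09, adjusted p = 6.95e-05) and Bcl2l11 by 1.09 (SE 0.11, adjusted p = 0.000431). In mean RPKM, double negative cells had 9.14 times the Bcl2, 25.9 times the Pmaip1 and 2.74 times the Bcl2l11 of mature cells. These 3 falls passed in every alternative in which the gene was tested. Those of Mcl1, Bak1, Bbc3 and Bad were small (0.25, 0.44, 0.54 and 0.28), and without mature replicate 2, or without double negative replicate 1, only the 3 large falls were called. Without mature replicate 1 Mcl1 was called beside those 3, and without double negative replicate 2 Bbc3 was. After quantile normalization Bak1, Bbc3 and Bad did not pass, and Mcl1 was at -0.47. For Bcl2l1 the difference was -0.04 (SE 0.07, limma adjusted p = 0.673), for Bax -0.22 (adjusted p = 0.0811) and for Bid -0.05 (adjusted p = 0.792). Bax passed as lower in 6 alternatives, among them quantile normalization (-0.45), voom (-0.38) and the fit to the 4 libraries compared (-0.22), and Bcl2l1 passed as lower with voom (-0.21).

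The third contrast, of immature beta cells with the double negative population, shares libraries with both others. Here 4 members were higher in immature cells (Mcl1, Bak1, Pmaip1 and Bcl2l11), 2 were lower (Bcl2 and Bcl2l1) and 4 did not pass, beside 56.6% of all tested genes called, 45.9% higher and 10.6% lower. Pmaip1 rose by 1.65 (SE 0.09, limma adjusted p = 6.23e-05), 4.26-fold in mean RPKM, Bcl2l11 by 0.83 (SE 0.11) and Mcl1 by 0.73 (SE 0.06). Without the hormone genes the last 2 were 0.51 and 0.37 and still passed. Bak1 rose by 0.65 (SE 0.12), but by 0.32 (adjusted p = 0.11) after rescaling without the hormone genes. Bcl2 fell by 0.50 (SE 0.10, limma adjusted p = 0.00735), with an adjusted p = 0.055 without double negative replicate 2, and Bcl2l1 fell by 0.44 (SE 0.07, adjusted p = 0.00372). These falls were larger under the other scalings, at up to -0.99 for Bcl2 and -0.79 for Bcl2l1. Higher genes made up 81.2% of all called genes with the deposited values, 61.6% after median-ratio rescaling, 46% without the hormone genes and 39.8% after quantile normalization. Bad differed by 0.02 (adjusted p = 0.892), but was called lower after quantile normalization and without the hormone genes (-0.31 and -0.32).

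**Figure D4:**
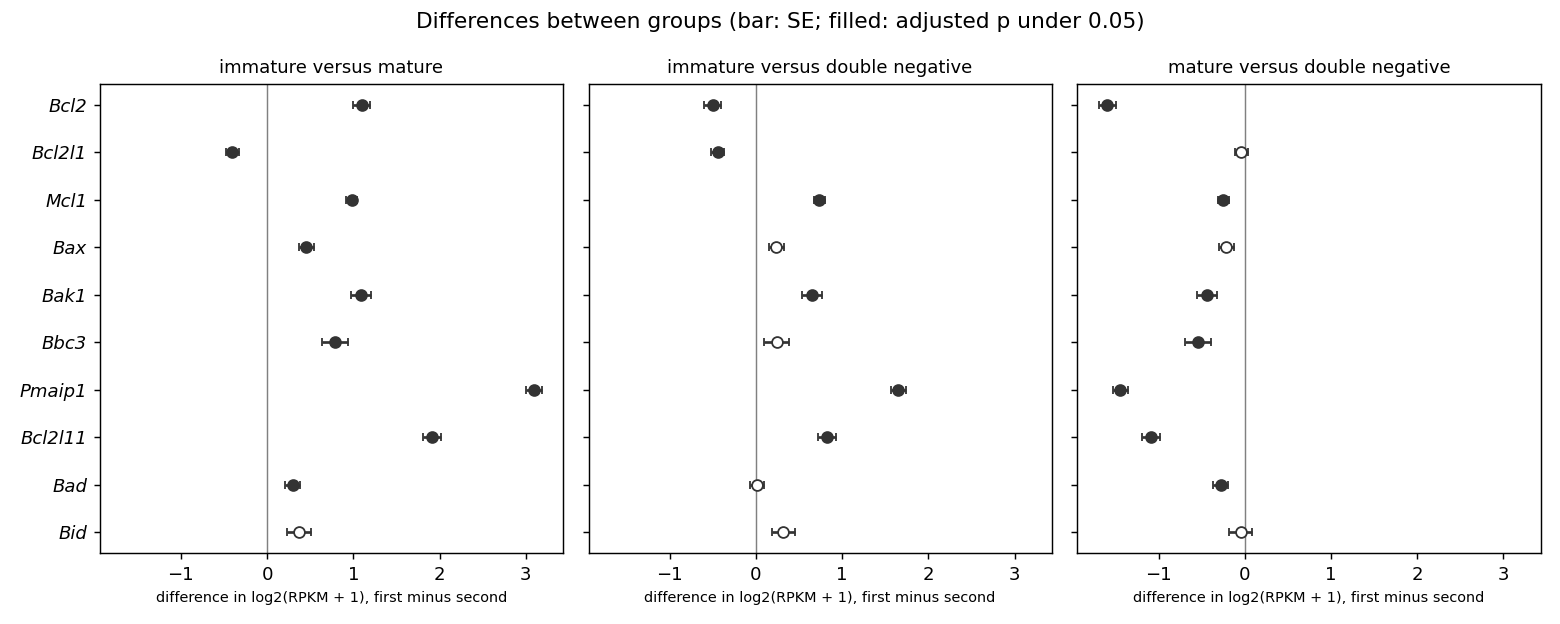
Difference in log2(RPKM + 1) with its SE for each member in the 3 comparisons, first group minus second, with filled points for an adjusted p under 0.05. Bcl2 is higher in immature than in mature cells (1.10) but lower than in double negative cells (-0.50), and Pmaip1 is the highest in immature cells against either group (3.10 and 1.65).

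Of 15 further family members 10 were tested, and 7 rose and 3 fell in immature against mature cells, with a median of 1.16 against 0.29 for all tested genes, of which 49.8% were called higher and 15.5% lower. Of those that rose, Bcl2a1b, Bcl2a1d and Bcl2l12 passed the filter only because of the immature libraries, so they could hardly be called lower. With the filter at 5 RPKM, 5 were tested and 2 rose while 3 fell, beside 4118 higher and 1804 lower of all 8794 genes tested. Bcl2a1b, a survival gene of blood cells, stood at 5.11 and 4.26 RPKM in immature cells and is listed at 0 in both mature libraries. Its reads can be split with near-identical copies such as Bcl2a1a and Bcl2a1d, so its level is uncertain. Bik and Bmf, further BH3-only sensors, rose by 1.55 (SE 0.24) and 1.31 (SE 0.10). Bik reached 7.64 and 5.55 RPKM in double negative cells, against 5.32 and 3.07 for immature and 0.85 and 0.63 for mature cells. Bok, an effector-like member, rose by 1.37 (SE 0.15). The 3 that fell were Bcl2l2, which encodes the survival protein Bcl-w, Bcl2l13 and Bnip3, by 0.51, 0.33 and 0.74. Bcl2l13 did not pass without mature replicate 1 (-0.27) or with voom (-0.18).

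Downstream of the mitochondria, 7 of 13 tested apoptosome and caspase genes rose in immature cells, 1 fell and 5 did not pass (median 0.63). The share that rose, 53.8%, was near the 49.8% of all tested genes. After quantile normalization 2 rose and 4 fell, beside 3367 higher and 5354 lower of all 13367 genes. Casp8, the initiator caspase of death receptors, rose by 1.68 (SE 0.08), from 4.33 and 4.29 RPKM to 16.9 and 15.1 RPKM, and Apaf1, the scaffold that cytochrome c activates, by 1.21 (SE 0.10). The mitochondrial protease gene Htra2 rose by 0.80, and the nuclease gene Endog fell by 0.78. Htra2 did not pass after quantile normalization (0.23), nor Endog with voom (-0.68). Cytochrome c itself, Cycs, was not tested, with 0.56 to 1.10 RPKM in all libraries. Of the caspase inhibitors, 4 of 5 tested rose and 1 did not pass (median 0.62), beside 49.8% of all tested genes higher. Xiap, which blocks caspases directly, rose by 1.03 (SE 0.08), Cflar, the decoy of Casp8, by 0.97 (SE 0.07), and Birc6 and Birc2 by 0.62 and 0.52. Birc2 did not pass after quantile normalization (0.20) or without the hormone genes (0.28).

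Death receptor genes had the widest range, with 7 of 9 higher, none lower and 2 not passing (median 0.73), beside 49.8% higher and 15.5% lower among all tested genes. Tnfrsf1b, a TNF receptor found on blood cells, rose by 3.84 (SE 0.11), from 0.85 and 0.67 RPKM to 26.0 and 22.6 RPKM. Tnfrsf10b, the mouse TRAIL receptor, stood at 10.9 and 10.2 RPKM for immature, 0.44 and 0.26 for mature and 2.49 and 2.52 for double negative cells. Pmaip1 had the same order of groups, as did other genes of these lists, among them Tnfrsf1b, Casp8, Xiap and Cflar. Ripk3, a kinase of necroptosis, rose by 2.99 (SE 0.10) and Fas by 1.34 (SE 0.10). Without the immature libraries Ripk3 would not have passed the filter, so it could hardly be called lower. Fas had 3.20 and 2.91 RPKM in double negative and 2.78 and 2.58 RPKM in immature cells. The immune and endothelial sums given above stood at their highest in the same immature libraries.

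Of 14 p53 regulators and targets, 9 rose (64.3%), 2 fell (14.3%) and 3 did not pass (median 0.66), shares not far from the 49.8% and 15.5% of all tested genes. Pidd1, among those that rose, passed the filter only because of the immature libraries. Phlda3, a p53 target that restrains Akt, rose by 1.91 (SE 0.10), Mdm4, an inhibitor of p53, from 3.56 and 2.83 RPKM to 10.0 and 9.25 RPKM, Eda2r by 1.33 and Sesn1 by 0.90, the last not passing after quantile normalization (0.38). Of 9 inducers of BH3-only genes, 2 rose, 5 fell and 2 did not pass (median -0.35), beside 49.8% higher and 15.5% lower among all tested genes. Trib3 and Chac1, genes of the endoplasmic reticulum stress response, fell by 1.49 (SE 0.06) and 1.39 (SE 0.07), as did Ddit3 and Atf4, transcription factor genes of the same response, by 0.86 and 0.54, while the stress transcription factor genes Jun and Atf3 rose. Atf3 went from 13.5 and 12.3 RPKM to 22.3 and 32.0 RPKM, and Jun differed by 1.52 (SE 0.07). The levels of Jun were 70.5 and 70.0 RPKM for immature, 24.9 and 22.9 for mature and 101 and 89.9 for double negative cells.

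The last lists hold genes that act on single members. Over all tested genes 49.8% were called higher and 15.5% lower in immature against mature cells. After median-ratio rescaling 5241 of all 13367 were called higher and 3425 lower. Of 6 genes of Mcl1 turnover, Fbxw7 and Huwe1, ubiquitin ligase genes, were higher by 0.32 and 0.27, March5, a ligase of the outer mitochondrial membrane, fell by 0.46 and 3 did not pass. Fbxw7 turned to -0.11 after quantile normalization, and neither Fbxw7 nor Huwe1 passed after median-ratio rescaling (0.13 and 0.05) or without the hormone genes (0.10 and 0.02). Among 8 mitochondrial channel partners, 2 rose, 3 fell and 3 did not pass (median 0.07), and none rose and 4 fell after median-ratio rescaling. The channel genes Vdac1 and Vdac3 fell by 0.61 each, while Dnm1l, a fission GTPase gene, and Vdac2, which encodes the channel that binds Bak, were higher by 0.44 and 0.29. Neither of these last differences passed after median-ratio rescaling (0.22 and 0.08). Of 13 kinases and 14-3-3 proteins, among them those that hold Bad inactive, 5 rose, 3 fell and 5 did not pass (median -0.03), and 4 rose and 7 fell after median-ratio rescaling. Pim1 and Rps6ka1, kinase genes, rose by 1.87 (SE 0.15) and 1.69 (SE 0.09), and the 14-3-3 genes Sfn and Ywhah by 1.32 (SE 0.25) and 0.69 (SE 0.06). Sfn did not pass after quantile normalization (0.59).

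**Figure D5:**
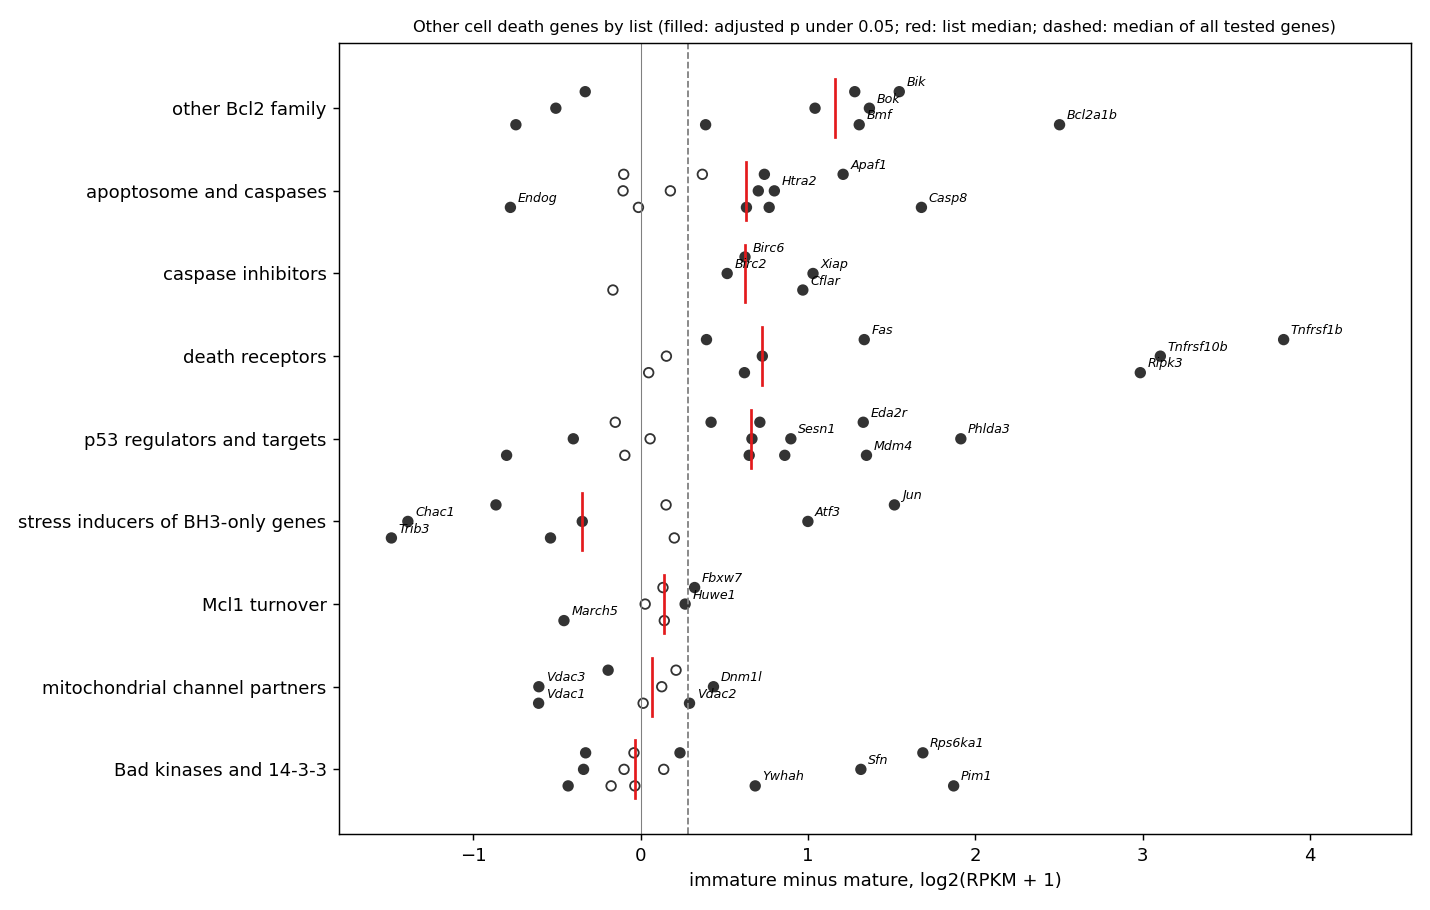
Immature minus mature difference in log2(RPKM + 1) of each tested gene of 9 further lists, with filled points for an adjusted p under 0.05, a red line at each list's median and a dashed line at the median of all tested genes (0.29). Tnfrsf1b (3.84), Tnfrsf10b (3.11) and Ripk3 (2.99) lie farthest right, and Trib3 (-1.49) and Chac1 (-1.39) farthest left. Fbxw7 (0.32) turned to -0.11 after quantile normalization.

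The patterns of 3 members were compared with all tested genes of at least 5 RPKM in a group, by Pearson's r of log2(RPKM + 1) over the 6 libraries. Fam149a (r = 0.9993), Cyp3a13 (r = 0.9985) and Akap17b (r = 0.9984) were most like Bcl2, with double negative above immature above mature cells. Plet1, Dctpp1 and Ythdf2 were most like Bax (r = 0.9982, 0.9977 and 0.9963), and Crim1, Dhx33 and Bdkrb2 most like Bcl2l11 (r = 0.9996, 0.9992 and 0.9992). Such likeness was common with 6 libraries in 3 groups, where libraries of a group share much of their depth and cell makeup: 490 of 8698 genes had r over 0.95 with Bcl2, 358 of 8697 with Bax and 1157 of 8697 with Bcl2l11.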

How the data were processed

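The authors deposited 1 table of RPKM values with 1 column for each library, and column names were matched to the titles. Per the submitters' processing notes, the tools were STAR 2.5, featureCounts and edgeR 3.14.0 on GRCm38.p4. The annotation release used for counting was not given in the sources used here. Each RPKM value is relative to each library's total, so Ins2 (33.2% and 34.8% of summed RPKM in mature, 12% and 12.4% in immature libraries) and Gcg (40.3% and 38.9% in double negative libraries) lower all other values there.

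Reads were recovered with exonic lengths of GENCODE M21 (GRCm38). Of low values (under 200 reads), 78.1% to 83.8% per library were whole within 0.02 reads. For Bax, Bbc3, Pmaip1 and Bad, M21's length gave no whole reads, and the only length that did in all 6 libraries was used (searched from 0.7 to 1.4 times M21's). Intervals and floors cover counting error only.

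Differences were tested on log2(RPKM + 1), which understates the change of low genes, with limma 3.58.1 in R 4.3.3 (group means over 6 libraries, intensity trend, 3 residual degrees of freedom, Benjamini-Hochberg adjustment over all 13367 tested genes, threshold 0.05). The fit was tested on simulated data in which few genes changed and no hormone RNA shifted the scaling, so that test does not bear on the scaling here. Promoter windows are from RefSeq (GRCm38.p6), matched by symbol for 9 of 10 members. Pmaip1, on chromosome 18, was left out of the search because windows on that chromosome were dropped for the members.

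Alternatives changed the pseudocount, filter, scaling, trend, weights, libraries or block (a lone library left in a group is assumed to vary like the others), or used limma's voom on 9045 genes with recovered reads. The members and lists were chosen with earlier results of these data known. The naming rule took the 10 members, then up to 4 genes per list with the largest immature against mature difference among those that passed without overlap, and the 3 genes most like Bcl2, Bax and Bcl2l11, passing over predicted genes and pseudogenes. Bcl2l2, Bcl2l13, Bnip3, Ddit3, Atf4, Foxo1, Foxo3, Cycs, Gpr137 and a few marker genes were named outside this rule, with their values known. So were Bcl2a1a, Bcl2a1d, Bcl2l12 and Pidd1.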

Additional observations from a re-analysis of the deposited data

How the results depend on the processing

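Of the members, Pmaip1, Bcl2l11 and Mcl1 kept direction and call between immature and mature cells in every alternative, as did Bcl2 and Bak1 where tested. Filtering at 5 RPKM leaves Bcl2 and Bid untested. Members called between mature and double negative cells numbered 4 without a filter on low values, against 7, and ranged from 3 to 8 when 1 library was left out, while genes called ranged from 4767 to 8982, against 7256. Voom called 4976 genes between immature and double negative cells, against 7563, from fewer genes tested. The cause of the other shifts was not tested. Quantile normalization reversed Bad (-0.075) and Bid (-0.20) for immature against mature cells, Bid (0.12) for mature against double negative cells, and Bbc3 (-0.17), Bad (-0.31) and Bid (-0.079) for immature against double negative cells. In the last comparison, rescaling without the hormone genes reversed Bax (-0.13), Bbc3 (-0.066) and Bad (-0.32), and median-ratio rescaling Bad (-0.18). In that comparison Bad ranged from -0.084 to 0.11 when 1 library was left out, and Bcl2l1 from -0.13 to 0.050 in mature against double negative cells. Fbxw7 (-0.11), Foxo1 (-0.19) and Foxo3 (-0.20) also reversed for immature against mature cells after quantile normalization, Foxo1 (-0.029) and Foxo3 (-0.083) without the hormone genes, and Foxo3 (-0.049) after median-ratio rescaling. Foxo3 ranged from -0.0019 to 0.31 when 1 library was left out.

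On the log2 scale, the BH3-only to survival ratio without Bad and Bid was -2.07, -3.79 and -2.72 for immature, mature and double negative cells, against -1.30, -1.88 and -1.51. As differences of mean log2(RPKM + 1) it was -0.92, -1.66 and -1.60, and the effector to survival difference 1.12, 0.91 and 0.61, other quantities by construction. With the replicate number as a block, 9, 7 and 6 members were called in the 3 comparisons, and it changed no member's call. Same-numbered libraries share the labelled sex, so the block holds number and sex together, but nothing ties them to the same animals. Their deviations correlated at -0.00933 for immature with mature, -0.112 for mature with double negative and 0.14 for immature with double negative cells. Depth limits the immature values of Bbc3 (26 and 39 reads) and Bcl2 (38 and 62 reads) most.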

Other observations

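Genes of other forms of cell death, chosen after the lists above had been read, differed by route between immature and mature cells. Of all tested genes, 49.8% were called higher in immature cells and 15.5% lower. All 3 necroptosis genes tested passed as higher, among them Mlkl, the membrane-breaking effector, at 10.9 and 9.82 RPKM in immature, 3.13 and 2.95 RPKM in mature and 6.40 and 6.34 RPKM in double negative cells. Ripk3, also among them, passed the filter only because of the immature libraries. All 6 tested genes of pyroptosis, an inflammatory death, passed as higher. Of these, Casp4, Nlrp3, Pycard and Aim2 passed the filter only because of the immature libraries, so they could hardly be called lower. Gsdmd, the pore-forming effector of pyroptosis, was at 11.8 and 11.8 RPKM in immature, 2.09 and 1.95 RPKM in mature and 3.11 and 2.82 RPKM in double negative cells. Casp1, which cuts Gsdmd, differed in order: it was lowest in double negative cells, at 0.272 and 0.294 RPKM, with 1.07 and 1.12 RPKM in mature and 7.26 and 7.17 RPKM in immature cells. The inflammasome sensor gene Nlrp3 stood at 4.74 and 3.07 RPKM in immature cells and at 0.0104 and 0 RPKM in mature cells. The immune marker Lyz2 was at 168 and 167 RPKM in these immature libraries, and its part in these differences was not tested.

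Ferroptosis genes, which govern death by iron-driven lipid oxidation, were mixed: of 8 tested, 4 were higher in immature cells (near the share over all tested genes), 2 lower and 2 did not pass. Gpx4, the peroxidase that prevents this death, was lower, at 13.3 and 16.5 RPKM in immature against 24.8 and 24.8 RPKM in mature cells (limma adjusted p = 0.00163). Slc7a11, the cystine importer that feeds it, was higher, at 9.48 and 8.83 RPKM against 2.17 and 2.05 RPKM, and the ferritin gene Fth1 was at 2978 and 3149 RPKM against 594 and 587 RPKM.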
